A study of Mus musculus with 58 samples.

Results

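SPEN is a large RNA-binding protein that is brought to Xist RNA on the inactivating X chromosome, and its C-terminal SPOC domain binds NCoR corepressor complexes, which carry the histone deacetylase HDAC3. Xist is the noncoding RNA that coats one X chromosome of female cells and silences its genes. In mice, SPEN is recruited through the A-repeat near the 5′ end of Xist. The comparison described here is between cells with a mutated SPOC domain and their parental line after 6 days of neural precursor (NPC) differentiation with Xist switched on, and it asks how far genes on the Xist-coating chromosome were silenced when the contact of SPOC with these corepressors was lost.

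The comparison takes in 4 of the 58 libraries of the series. The parental group (WT) is 2 libraries of iXist-ChrX-Dom, a female mouse embryonic stem cell (ES) line from a cross of 129S (Dom) and Mus castaneus (Cast) strains, in which a doxycycline-responsive TetOn promoter drives Xist from the Dom X. The SPOC group is 1 library each of clones D9 and H1, derived from that line by point mutations in the SPOC domain of Spen. Both groups were differentiated in N2B27 medium with 1 ug/mL doxycycline until day 6, so Xist was induced in the controls too, and the groups differ only in the Spen mutation as far as the labels give it. The line has exchanged X sequence by recombination, so that from Xist to the distal end both X chromosomes carry Cast sequence, and for most genes of that stretch the allele cannot be read. Xist and Tsix, at its edge, still carry readable Dom sequence. No day 0 ES library of WT was used here. The clones before induction (SPOC ES day 0) and the untreated PCGF35 line as ES cells serve as the starting point. The PCGF35 line was made from the same parental line, with FKBP12 degron tags on the Polycomb proteins PCGF3 and PCGF5. Untreated means without the dTAG compound that degrades both.

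Chromatin-associated RNA was measured, and the fragments assigned to each gene were counted over the gene body, introns included. The Dom share of a gene is the part of its allele-assigned fragments that came from Dom, so 0.5 is equal output of both X chromosomes and 0 is complete silencing of the Dom copy. WT libraries held 13.3 and 12.9 M (mega) fragments and the SPOC libraries 12.9 and 11.3 M, of which 47.1% to 47.6% carried allele information. Of 908 annotated X genes, 578 lie before Xist, and the deposited allelic table holds 246 of these. A total of 221 of the 246 had at least 10 allelic fragments in each library and were tested, and 25 were not. The median table gene had 115.5 and 92 allelic fragments in WT and 142 and 114 in SPOC. At that depth a Dom share equal to the library median had a 95% Wilson interval of 0.0479 to 0.153 in WT replicate 1 and 0.259 to 0.412 in clone D9, and a gene with no Dom fragment could still have a share of up to 0.0260 or 0.0211 in these libraries. Such intervals cover counting error only.

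The part of Xist through which SPEN arrives is shown here because the SPOC domain acts downstream of it. The mature Xist-201 transcript of GENCODE vM21 (GRCm38) has 17946 bases. Its leading 1000 bases were searched for the most frequent 8-base word that holds all of A, C, G and T. Where words tied, a fixed alphabetical rule picked the word shown. It occurs 6 times in those bases and 6 times in the whole transcript. Copies that differ in this word were not looked for, so the units printed need not be the whole repeat. Each unit is printed 5′ to 3′ along the RNA with 40 bases, the shared word in capitals. The units run from transcript base 351 to 722, in exon 1 on the minus strand, between chrX:103482533-103482572 for unit 6 and chrX:103482865-103482904 for unit 1.
Unit 1: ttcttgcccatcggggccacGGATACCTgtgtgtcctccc
Unit 2: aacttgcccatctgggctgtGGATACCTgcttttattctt
Unit 3: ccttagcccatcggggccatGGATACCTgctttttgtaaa
Unit 4: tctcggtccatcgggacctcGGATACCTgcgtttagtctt
Unit 5: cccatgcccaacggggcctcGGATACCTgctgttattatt
Unit 6: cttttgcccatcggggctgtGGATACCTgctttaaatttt
These repeats were not edited in either group, and gene counts carry no sequence, so nothing about the repeats themselves was measured.

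Spen (chr4:141467889-141538597, minus strand) itself was read at 149 and 118 CPM in WT and at 498 and 488 CPM in SPOC, where CPM is fragments of a gene per mega of all fragments. The groups did not overlap, and the log2 fold change was 1.95 (SE 0.16, adjusted p = 0.00623). Both alleles took part, with a Dom share of 0.484 and 0.488 in WT against 0.499 and 0.479 in SPOC. Counts per gene do not show the point mutations, so they check the labels only by this difference. Xist (chrX:103460372-103483233, minus strand) was at 7744 and 9007 CPM in WT and at 5261 and 4507 CPM in SPOC. Both clones were below both WT libraries, at a log2 fold change of -0.72 (SE 0.19) that did not pass the test (adjusted p = 0.0878). At least 0.999 of its allelic fragments were Dom in each library, so Xist came from the engineered chromosome in all 4. The part of this Xist difference in the results below was not tested.

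Genes on the Xist-coating chromosome were far less silenced in SPOC than in WT, and none of the table genes tested was called more silenced. The median Dom share over the 246 genes was 0.0833 and 0.0886 in WT and 0.331 and 0.338 in SPOC, a difference of 0.249. The clones differed from each other by less than 0.01 in this median, and so did the WT libraries. With 2 against 2 libraries a two-sided exact permutation p cannot go below 0.333, and that was its value here. Per gene, 172 of the 221 tested table genes had a higher Dom share in SPOC and 0 a lower one (edgeR quasi-likelihood test of Dom against Cast counts, adjusted p under 0.05). Over all genes tested in the genome 2.77% were called higher and 2.09% lower. In 207 of the 221 genes both clones were above both WT libraries and in 0 below, against 21% of all genes tested with both clones above.

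**Figure D1:**
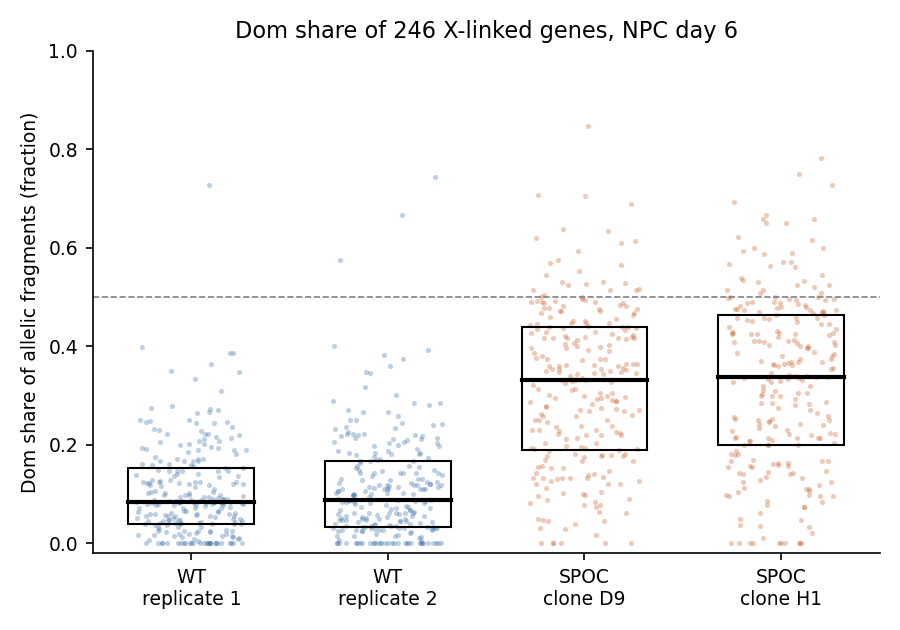
Dom share (fraction of allelic fragments) of the 246 X-linked genes in each of the 4 NPC day 6 libraries. Each point is a gene, boxes span the quartiles, thick lines are medians (0.0833, 0.0886, 0.331 and 0.338 from left to right), and the dashed line marks 0.5.

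Silencing was nevertheless partial in SPOC, not absent. The same genes had a median Dom share of 0.500 in clone D9 and 0.519 in clone H1 as ES cells before induction, and of 0.509 and 0.511 in the untreated PCGF35 ES libraries. On NPC day 6, 189 of the 221 genes were below their own clone's starting share in both clones, 4 were at or above it in both, and 28 were split. The median gene kept 63.3% of its starting share in D9 and 68.6% in H1, while the WT share came to 18.5% of the start of the clones. A total of 18 genes kept under 25% of the start in both clones, and 31 kept over 90% in both.

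As a difference between quartiles, the spread among genes was wider in SPOC than in WT, whose shares lie close to 0. As a ratio of the upper to the lower quartile, it was wider in WT. The quartiles were 0.0397 and 0.153 in WT replicate 1 and 0.0338 and 0.167 in replicate 2, and 0.190 and 0.438 in D9 and 0.200 and 0.463 in H1. Genes under a share of 0.1 numbered 146 and 129 in WT and 25 and 28 in SPOC. Genes at 0.5 or more numbered 1 and 3 in WT and 27 and 36 in SPOC. No Dom fragment at all was counted for 28 and 32 genes in WT and for 6 and 10 genes in SPOC.

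Both clones ordered the genes alike. Across the 221 genes, Spearman's rho was 0.889 between the shares of D9 and H1, 0.793 between the WT libraries and 0.739 between the group means, as a description over genes, which are not independent replicates. Among 151 genes with at least 50 allelic fragments in each library, the median absolute difference was 0.0290 between the clones and 0.0181 between the WT libraries, and the groups differed by 0.227. Differences over 0.1 between the clones occurred in 9 of the 151 genes and between the WT libraries in 7. The largest clone difference was in Kis2, a noncoding transcript, with a share of 0.400 in D9 (interval 0.305 to 0.503) and 0.222 in H1 (0.149 to 0.318) against 0.00813 and 0 in WT. This gene was named after its values were seen.

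The genes with the largest rise in Dom share had a variety of roles. F8, the gene of coagulation factor VIII (chrX:75172714-75380041, minus strand), had a share of 0.0818 and 0.0674 in WT and 0.688 and 0.594 in SPOC. Its share before induction was 0.805 in D9 and 0.861 in H1 and 0.571 and 0.591 in the PCGF35 ES libraries, so the clones started from a Dom-rich state at this gene. Pdzd4, which codes for a PDZ-domain protein, went from 0.0858 and 0.106 in WT to 0.531 and 0.539 in SPOC (adjusted p = 8.95e-18).

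The 10 largest rises included a pair of transporters. Slc6a8, the creatine transporter, had 0.137 and 0.218 in WT and 0.639 and 0.587 in SPOC. Slc7a3, a transporter of cationic amino acids, had 0.0661 and 0.0315 in WT and 0.446 and 0.486 in SPOC, at its starting share of 0.477 and 0.438. Zdhhc9, a palmitoyltransferase, had 0.194 and 0.163 in WT and 0.613 and 0.497 in SPOC. Both clones lay above both WT libraries in each of these genes, which was a condition for choosing the 10.

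Pola1, the catalytic subunit of DNA polymerase alpha (chrX:93304765-93632155, minus strand), was the most deeply covered of the 10, with 5349 to 11842 allelic fragments per library. Its share was 0.0604 and 0.0622 in WT and 0.438 and 0.482 in SPOC (adjusted p = 1.56e-23), still under the starting 0.545 and 0.536. Rps4x, a ribosomal protein gene close to Xist, had 0.0612 and 0.119 in WT and 0.420 and 0.494 in SPOC. Irak1, a kinase of interleukin-1 receptor signalling, had 0.120 and 0.0854 in WT and 0.484 and 0.453 in SPOC. The remaining members of the 10 were Itgb1bp2 and Mpp1, with differences of 0.412 and 0.382.

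At the other end, some genes were about as silent in SPOC as in WT. Eda, which codes for ectodysplasin, a TNF-family ligand (chrX:99975605-100400760, plus strand), had a share of 0.0179 and 0.0158 in WT and 0.0385 and 0.0208 in SPOC, with 1064 to 1506 allelic fragments per library. Its adjusted p was 0.100, and its starting share was 0.445 and 0.455, so the clones kept 8.65% and 4.59% of it. Zc3h12b, of a family of RNA-degrading zinc-finger proteins, had 0.0396 and 0.0460 in WT and 0.0741 and 0.0116 in SPOC from a start of 0.466 and 0.553. The groups overlapped for this gene.

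Msn, Phka1 and Nhsl2 were also among the lowest in SPOC, and the first and second of them passed the test with all libraries. Msn, which codes for moesin, a linker of membrane and actin, had 0.0126 and 0.0106 in WT and 0.0625 and 0.0343 in SPOC (adjusted p = 0.00692). Phka1, a subunit of phosphorylase kinase, had 0.0136 and 0.00427 in WT and 0.0810 and 0.0488 in SPOC (adjusted p = 0.00291). Nhsl2 had 0 and 0.0248 in WT and 0.0637 and 0.0989 in SPOC (adjusted p = 0.0591). Neither call held without clone D9 (adjusted p = 0.349 for Msn and 0.105 for Phka1), without WT replicate 1 (0.152 and 0.0650) or without WT replicate 2 (0.175 and 0.193) in the same edgeR test. The clones kept 6.24% to 20.0% of the start at these genes.

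A small difference did not always mean a silent gene. Slc25a5, a mitochondrial ADP/ATP carrier, had 0.399 and 0.289 in WT and 0.436 and 0.338 in SPOC and overlapped between groups (adjusted p = 0.792), beside a start of 0.369 and 0.439. Dynlt3, a dynein light chain named after its values were seen, was mostly Dom in every library, at 0.728 and 0.744 in WT and 0.847 and 0.782 in SPOC. Atp6ap1, a subunit of the vacuolar proton pump, had 0.0519 and 0.157 in WT and 0.127 and 0.124 in SPOC with a start of 0.210 and 0.216. Of the 10 table genes with the smallest change, 3 were called higher, Msn and Phka1 among them. The mean share was lower in SPOC for 1 of the 221 genes, Dnase1l1, named after its values were seen, with 11 to 20 allelic fragments per library and means of 0.168 in WT and 0.153 in SPOC.

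**Figure D2:**
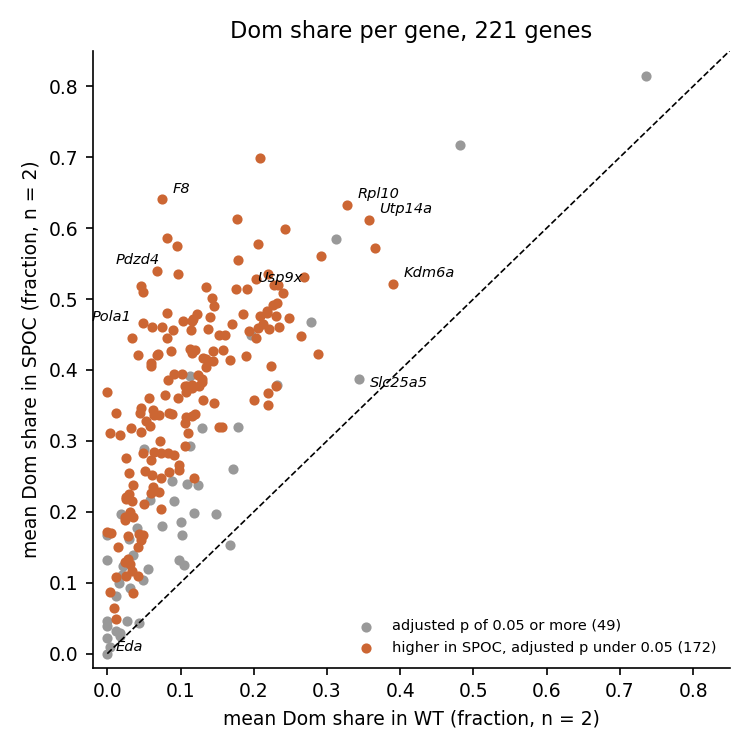
Mean Dom share (fraction, n = 2 libraries per group) of the 221 tested table genes in WT (x axis) and SPOC (y axis). The 172 genes called higher are coloured and the 49 others grey, the dashed line marks equal shares, and 1 of the 221 genes lies under it.

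The shares also varied along the chromosome. In windows of 10 Mb, the median of the SPOC mean share was highest at 10 to 20 Mb (0.490 over 15 genes) and lowest at 90 to 100 Mb (0.126 over 22 genes). The WT medians of these windows were 0.190 and 0.0393. The difference between groups was 0.271 in the former and 0.0736 in the latter, and between 0.136 and 0.267 in the other windows. Across the 221 genes, Spearman's rho of distance from Xist was 0.336 with the WT share, 0.307 with the SPOC share and 0.174 with the difference between groups, as descriptions over genes of the same libraries.

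The low window was largely a stretch of neighbouring genes from Maged1 to Eda (chrX:94535473-100400760), 3.06 to 8.93 Mb from Xist, whose ends were set after the values were seen. It holds 20 table genes, of which 16 could be tested, and 5 of the 16 were called higher against 167 of the 205 other table genes. The median share of the 16 was 0.0314 and 0.0155 in WT and 0.0861 and 0.0357 in SPOC, from a start of 0.491. The stretch contains Maged1, Amer1, Zc3h12b, Msn and Eda, and 9 of the 16 tested table genes with a mean SPOC share under 0.1. Eda2r, a receptor for a form of ectodysplasin, was a member of the stretch with a large rise, from 0.105 and 0.101 to 0.375 and 0.412. Just beyond the stretch on the side away from Xist, Zfx, Eif2s3x and Apoo were called higher, and so was Pola1. Since the window was chosen for its low values, no test was made of it.

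**Figure D3:**
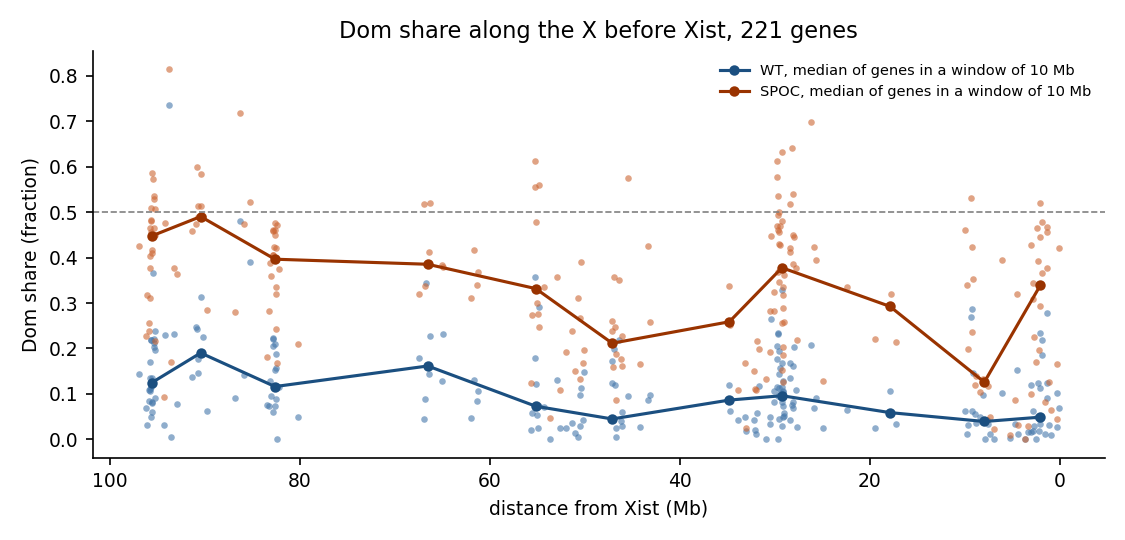
Mean Dom share (fraction, n = 2 libraries per group) of the 221 tested genes against distance from Xist in Mb, with Xist at the right. Lines join the medians of genes in windows of 10 Mb, placed at the median distance of their genes, and the SPOC line comes down to 0.126 in the window just before Xist's own.

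Genes that were more active on the Cast X tended to a higher share in both groups. Ordered by Cast fragments per kb of gene and cut into 4 groups of 55 or 56 genes, the median share went from 0.0476 and 0.0370 in the lowest group to 0.124 and 0.129 in the highest in WT, and from 0.201 and 0.205 to 0.420 and 0.426 in SPOC. The number called higher was 30 of 56 genes in the lowest group and 51 of 55 in the highest, whose median allelic coverage differed too (56.5 against 428.8 fragments). Spearman's rho between this level and the SPOC share was 0.313 over 221 genes. It is a description, since the level and the share use the same Cast counts.

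The change was on the Dom chromosome. The Dom fragments of the table genes summed to 714 and 660 CPM in WT and 3206 and 3392 CPM in SPOC, 4.80 times as many. Their Cast fragments summed to 5521 and 5244 CPM in WT and 5409 and 5366 CPM in SPOC, at a ratio of 1.00, and the Cast groups overlapped. Tested on Dom counts alone, 158 of the 221 genes were higher and 0 lower in SPOC, against 2.57% and 2.09% of all genes tested, and the median log2 fold change was 2.21 (quartiles 1.73 and 2.85). Tested on Cast counts, 5 were higher and 4 lower, against 1.59% and 2.23% of all genes tested, with a median of 0.03 (quartiles -0.21 and 0.24). Without clone H1 or without WT replicate 2, the 10 Cast calls among all X genes before Xist became 2 and 1.

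Among the Cast calls, Flna, which codes for the actin crosslinker filamin A, fell on the Cast allele by 1.13 on the log2 scale (adjusted p = 0.0471) while its Dom counts had a log2 fold change of 2.29. F8 fell by 1.05 on the Cast allele. Fmr1nb, a gene next to Fmr1, rose on both, by 1.54 on Cast (adjusted p = 0.000875) and by 3.89 on Dom. Syn1, the gene of the synaptic vesicle protein synapsin, rose by 1.06 on Cast.

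**Figure D4:**
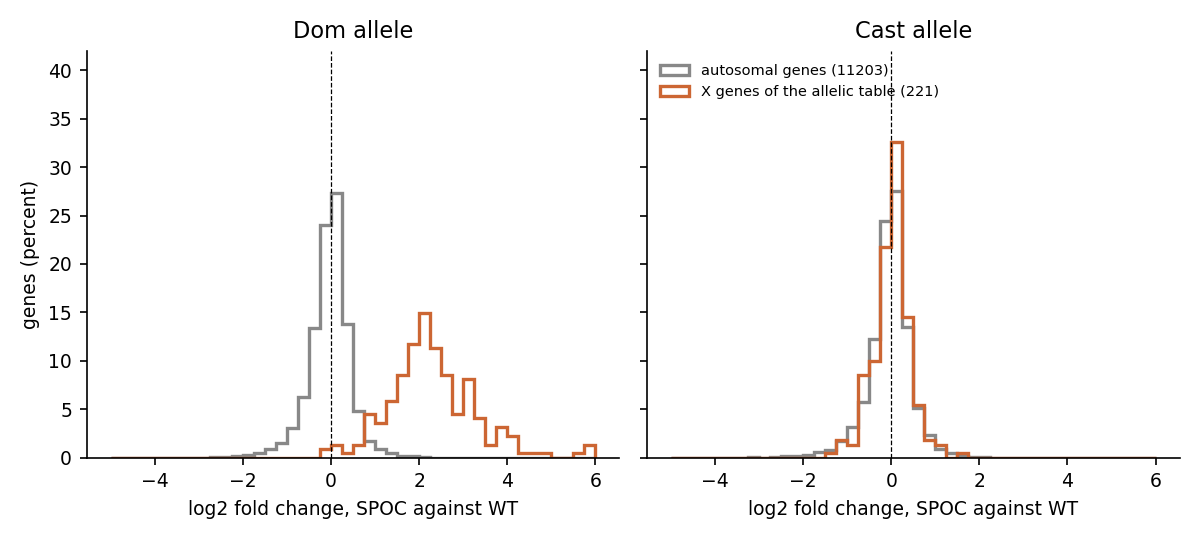
Distribution of log2 fold changes (SPOC against WT) of Dom counts (left) and Cast counts (right), as percent of genes per bin, for the 221 table genes and for 11203 autosomal genes. The X genes centre on 2.21 for the Dom allele and on 0.03 for the Cast allele.

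Total output of these genes rose by less, since the Cast copy supplies most of it. The median log2 fold change of total expression over the 221 genes was 0.47, where 0.44 would follow from the shares if Cast output were fixed. Of all 488 X genes tested, 51 rose and 11 fell, against 1.06% and 1.84% of all 13995 genes tested. Before Xist 32 rose and 1 fell of 296 (median 0.44), and from Xist on 19 rose and 10 fell of 192 (median 0.13). Autosomes gave 98 higher and 246 lower of 13506, with a median of -0.03. The 51 became 103 without WT replicate 1 and 98 without WT replicate 2, and the 11 became 26 without clone D9, 25 without WT replicate 1 and 21 without WT replicate 2. The X took 3.96% of all fragments in both WT libraries and 4.82% and 4.73% in SPOC (exact p = 0.333).

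X genes with the largest rise in total expression were often low to begin with. Mageb16, of the melanoma antigen family, had 4.50 and 3.50 CPM in WT and 16.6 and 16.7 CPM in SPOC (log2 fold change 2.12, SE 0.24, adjusted p = 0.0107). Fmr1nb had 20.8 and 20.6 CPM in WT and 62.7 and 70.0 CPM in SPOC. Usp9x, a deubiquitinase, was abundant, at 872 and 907 CPM in WT and 1799 and 2152 CPM in SPOC (log2 fold change 1.21, SE 0.18, adjusted p = 0.0182), and its Dom share rose from 0.196 and 0.184 to 0.505 and 0.524. Pola1 rose from 1137 and 1361 CPM to 2479 and 3011 CPM. Further members were Syn1, Pdzd4, Gab3, Pnma5, Renbp, Mpp1 and, beyond Xist, Trap1a, with log2 fold changes from 1.21 to 1.69. The edgeR call was lost for Gab3 without clone H1 (adjusted p = 0.116) and for Trap1a without clone D9 (adjusted p = 0.0555).

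Beyond Xist the share of most genes cannot report on the Dom copy, because both chromosomes read as Cast there. Of 145 genes tested in that part, 124 had a mean share under 0.02, and Tsix alone was called. Tsix, transcribed antisense through Xist and counted on its own strand, had a Dom share of 0.0789 and 0.0584 in WT and 0.251 and 0.207 in SPOC (adjusted p = 1.41e-09), at 143 and 148 CPM against 166 and 182 CPM. Reads called Cast beyond Xist rose for 26 and fell for 9 of 145 genes, against 1.59% and 2.23% of all genes tested on Cast counts. The median log2 fold change was 0.24. Huwe1, a ubiquitin ligase, rose from 1212 and 1093 CPM to 2378 and 2234 CPM (log2 fold change 1.06, SE 0.16, adjusted p = 0.0192), and Atrx, a chromatin remodeller, from 657 and 559 CPM to 1023 and 1025 CPM. Genes beyond Xist, without Xist and Tsix, took 1.27% of fragments in both WT libraries and 1.70% and 1.64% in SPOC.

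The genes that fell on the X lay almost all beyond Xist. Of the 10 largest falls Heph alone lies before it. Col4a5 and Col4a6, a pair of neighbouring genes of basement membrane collagen, had 13.0 and 28.3 CPM and 17.3 and 24.6 CPM in WT, and 1.87 and 0.888 CPM and 3.81 and 2.04 CPM in SPOC. Amot, which codes for angiomotin, a regulator of Hippo signalling, went from 52.9 and 45.4 CPM to 7.77 and 6.04 CPM (log2 fold change -2.76, SE 0.21, adjusted p = 0.00623). Arhgap6, Fndc3c1, Pcdh11x, Mum1l1, Nrk and Tmsb4x also fell, with log2 fold changes from -3.00 to -1.34. Without clone H1 the edgeR call was lost for Heph (adjusted p = 0.233), Nrk (0.0644) and Tmsb4x (0.146).

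X-linked genes were also read by function, with lists chosen with earlier results known. Among all 228 X genes tested before Xist, 175 or 76.8% were called for the share, and the counts of the lists are to be read against that. Genes that often escape silencing kept a high Dom share in WT and were still higher in SPOC. Kdm6a, a histone demethylase, had 0.387 and 0.393 in WT and 0.514 and 0.530 in SPOC. Ddx3x, an RNA helicase, had 0.247 and 0.205 in WT and 0.496 and 0.487 in SPOC. Eif2s3x and Utp14a made up the 4 escape genes before Xist, and all 4 were called, with medians of 0.322 in WT and 0.507 in SPOC beside a start of 0.524.

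Genes for chromatin proteins before Xist were called in 14 of 16, with a median share of 0.129 in WT and 0.422 in SPOC. Hdac8, a histone deacetylase, and Phf6 were called but stayed low, at 0.141 and 0.112 for Hdac8 and 0.127 and 0.141 for Phf6 in SPOC. In total expression 3 of 23 of these genes rose and 0 fell, namely Atrx, Huwe1 and Rbbp7, all beyond Xist, with a list median of 0.55 beside 0.38 over all X genes tested, of which 10.5% rose. Of 12 genes for RNA processing and translation before Xist all were called, and Nono, Thoc2 and Upf3b rose in total expression among 17 tested, with a median of 0.64.

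Genes with roles in pluripotency and MAPK signalling before Xist were called in 7 of 7, from a median of 0.0949 in WT to 0.476 in SPOC. Klhl13, an adaptor of a ubiquitin ligase, had a share of 0.0448 and 0.0555 in WT and 0.194 and 0.228 in SPOC and rose from 284 and 316 CPM to 488 and 500 CPM (log2 fold change 0.78, SE 0.16, adjusted p = 0.0469). Dusp9, a MAPK phosphatase, had too few allelic fragments to test and 9.37 and 5.20 CPM in WT and 5.36 and 2.13 CPM in SPOC (adjusted p = 0.353). Metabolic genes were called for the share in 8 of 10 before Xist, and 0 of 22 changed in total expression by the edgeR test. Neuronal genes were called in 7 of 9, and 1 of 16, Syn1, rose in total expression, with a list median of -0.15.

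The corepressor arm itself included an X gene. Tbl1x, a subunit of the NCoR complexes, had a Dom share of 0.0792 and 0.0604 in WT and 0.419 and 0.426 in SPOC (adjusted p = 1.97e-19), at 516 and 571 CPM against 755 and 711 CPM (adjusted p = 0.169). Among the other members of that list, Ncor1, Hdac3, Tbl1xr1, Gps2, Rbm15 and Rbm15b had log2 fold changes between -0.12 and 0.28 that did not pass the test. Spen was the member that rose.

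The labelled cell type was checked against marker genes. Nes, an intermediate filament gene of neural progenitors, Ncam1, Cdh2 and Slc1a3 were present, but Sox1, Sox2 and Zic1 were listed at 0 CPM in all 4 libraries and Hes5 at 0.155 CPM or less, and 8 of 20 progenitor markers were under 1 CPM throughout. Sox1 and Sox2 lie inside longer genes of the same strand in GENCODE vM21. The authors counted over a RefSeq annotation, and whether such overlap gave these zeros was not tested. The zeros alone do not show that the genes were silent. Naive pluripotency genes were present in all 4 libraries, Esrrb at 267 to 506 CPM and Zfp42 at 136 to 266 CPM. In bulk RNA, fewer cells of a type and less RNA per cell cannot be told apart.

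Naive pluripotency genes were mostly higher in SPOC, but few passed the test. Of 15 tested, 2 rose (1.06% of all genes tested did), 0 fell, and 14 had a log2 fold change above 0, with a median of 0.62. Tdh, threonine dehydrogenase of the naive state, had 93.4 and 72.6 CPM in WT and 145 and 161 CPM in SPOC (log2 fold change 0.95, SE 0.16, adjusted p = 0.0258). Dppa5a had 17.3 and 19.0 CPM in WT and 35.7 and 33.2 CPM in SPOC (adjusted p = 0.0364). Zfp42 had 152 and 136 CPM in WT and 209 and 266 CPM in SPOC (adjusted p = 0.0539). The core and formative genes, Pou5f1 and Otx2 among them, gave 0 calls of 12 by the edgeR test and a median of -0.06, and Lin28b was lowest, at 226 and 239 CPM against 150 and 139 CPM (adjusted p = 0.0690).

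Of 10 progenitor genes tested, 2 fell and 0 rose, where 1.84% and 1.06% of all genes tested did. The list as a whole did not fall, with 6 of the 10 above 0 and a median log2 fold change of 0.13. Nes fell by 2.26 (SE 0.42, adjusted p = 0.0334) and Vim, the gene of vimentin, by 1.45 (SE 0.19, adjusted p = 0.0152) on the log2 scale, with both clones under both WT libraries. On day 3 and in other lines with the mutation the groups overlapped for both genes, as given below. Pax6 and Sox21, transcription factors of the neural lineage, were higher in both clones but did not pass, Pax6 at 2.55 and 2.49 CPM in WT against 6.69 and 4.53 CPM in SPOC (adjusted p = 0.0878) and Sox21 with an adjusted p of 0.0653. Among neuron genes 1 of 9 fell, Syt1, a synaptic vesicle calcium sensor, from 55.0 and 46.8 CPM to 23.2 and 13.6 CPM (adjusted p = 0.0283). Of the Notch pathway, in which SPEN is known as a partner of RBPJ, 0 of 13 ligands, receptors and modulators and 0 of 2 targets were called. Rbpj was at 718 and 758 CPM in WT and 1107 and 1144 CPM in SPOC (log2 fold change 0.67, SE 0.16, adjusted p = 0.0751), and Hes1 was at 5.70 and 3.50 CPM against 6.06 and 5.33 CPM. ERK output genes, such as Spry4 and Etv5, gave 0 calls of 16.

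The 10 autosomal genes with the largest falls included several genes of the extracellular matrix. Thbs1, which codes for the matrix protein thrombospondin, went from 95.8 and 115 CPM to 8.55 and 2.13 CPM (log2 fold change -4.22, SE 0.47, adjusted p = 0.0107). Col12a1, a fibril-associated collagen, went from 14.6 and 13.5 CPM to 1.32 and 1.15 CPM (log2 fold change -3.43, SE 0.28, adjusted p = 0.00623). Pcdh7, a protocadherin, went from 100.3 and 239 CPM to 18.7 and 4.88 CPM. Tnc (tenascin), Tagln (an actin-binding protein of smooth muscle), Ldb2 (a LIM-domain binding protein), Prss23, Kynu, Wdr72 and Sh3rf2 completed the 10, with log2 fold changes from -3.95 to -3.14.

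Some markers of other cells fell as well. Of 7 fibroblast markers 4 could be tested and 2 fell, Col1a1 and Col1a2, where 1.84% of all genes tested fell. Of the 4, 1 had a log2 fold change above 0. The list summed to 12.8 and 22.4 CPM in WT and 4.59 and 1.51 CPM in SPOC. Lum was at 0 CPM in all 4 libraries, and Postn at 0.388 CPM or less. T, a mesoderm transcription factor, fell from 4.35 and 3.18 CPM to 0.700 and 0.710 CPM (adjusted p = 0.0251), and it was the only call among 5 mesendoderm genes tested. Of these 5, 1 had a log2 fold change above 0. The part of such cells in the falls was not tested. The 98 higher and 246 lower autosomal calls became 366 and 616 without WT replicate 1, 345 and 512 without WT replicate 2, and 168 and 419 without clone D9.

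Autosomal rises were smaller. The highest was Nptx1, which codes for a neuronal pentraxin, followed by Spen. Nptx1 was at 3.45 and 4.89 CPM in WT and 12.2 and 19.2 CPM in SPOC (log2 fold change 1.97, SE 0.33, adjusted p = 0.0240). Hpse2, a heparanase relative, went from 49.3 and 44.2 CPM to 162 and 144 CPM (log2 fold change 1.77, SE 0.15, adjusted p = 0.00623). Kcnc2, a potassium channel, went from 71.6 and 41.6 CPM to 139 and 224 CPM. Notum, an enzyme that inactivates Wnt proteins, went from 4.57 and 2.25 CPM to 11.6 and 12.7 CPM, and Sohlh2, Xirp2, Nyap2, Mboat4 and 1700123I01Rik had log2 fold changes from 1.73 to 1.91.

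**Figure D5:**
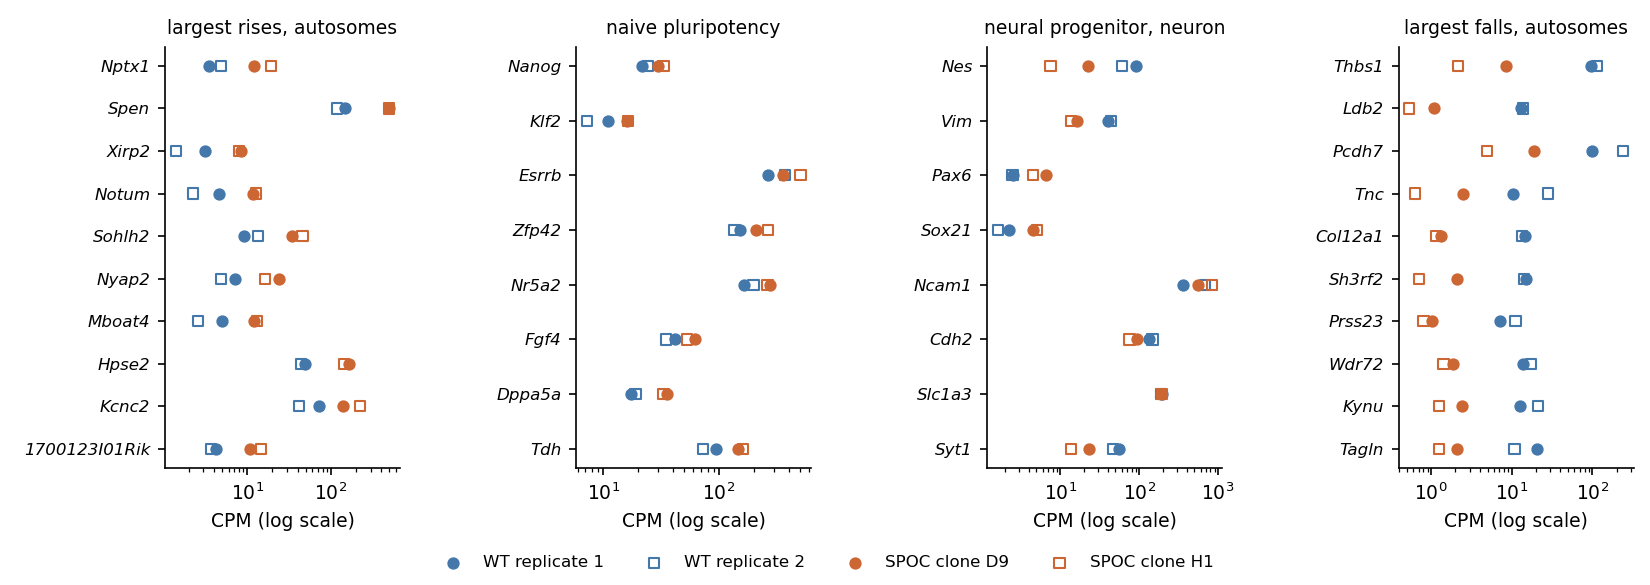
Expression in CPM (log axis) of the 10 autosomal genes with the largest rises, 8 naive pluripotency genes, 8 neural genes and the 10 autosomal genes with the largest falls, with 1 symbol per library (filled for WT replicate 1 and clone D9, open for WT replicate 2 and clone H1). The clones lie clear of WT in the outer panels, whose genes were chosen on that condition. Nes and Vim are low in the clones, and Ncam1 and Slc1a3 overlap.

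Autosomal Dom shares served as a control for the X. Outside chromosome 11, 144 of 10284 autosomal genes were called higher and 89 lower. On chromosome 11, 1 was called higher and 153 lower of 919. Over all genes tested for the share, 2.77% were called higher and 2.09% lower. Its Dom percent was 55.2 and 53.5 in WT and 47.8 and 47.9 in SPOC, and was already 47.3 in clone H1 but 54.5 in clone D9 as ES cells. Chromosome 11 took 7.61% and 7.66% of fragments in WT and 7.12% and 7.11% in SPOC, with a median log2 fold change of -0.31 for Dom counts and -0.00 for Cast counts. Its part in the expression calls was not tested, and 5 of the 98 higher and 23 of the 246 lower autosomal genes lie on it. These were 0.452% and 2.08% of its 1106 genes tested for total expression, against 0.750% and 1.80% on the other autosomes. Over all autosomes 145 genes were called higher and 242 lower. Without clone D9 these became 84 and 143, without clone H1 36 and 98, without WT replicate 1 29 and 85, and without WT replicate 2 33 and 98.

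The same mutation was present in other libraries of the series, which share none with the comparison above. On day 3 the median share of the 246 genes was 0.192 and 0.178 in WT and 0.411 and 0.405 in clones D9 and H1. In the untreated PCGF35 line on day 6 it was 0.0649 and 0.0833, against 0.328 and 0.402 in PCGF35_SPOC clones F10 and F6. In DelPID, with the Polycomb-recruiting part of Xist deleted, it was 0.250 and 0.330. With the SPOC mutation there (clones A8 and G3) it was 0.496 and 0.508. DelPID replicate 1 was shallow, with 19 allelic fragments for the median gene, and the study describes clone G3 as tetraploid. SPOC libraries were higher in each line. Eda had 0.113 and 0.121 in PCGF35_SPOC and 0.363 and 0.373 in DelPID_SPOC, above its 0.0385 and 0.0208 in SPOC on the same day, a difference that was not tested. Expression of Nes and Vim overlapped between libraries with and without the mutation on day 3, in PCGF35 and in DelPID. In PCGF35, Nes was at 276 and 115 CPM without it, 227 CPM in F10 and 21.0 CPM in F6. Tdh was at 156 and 140 CPM in WT and 164 and 186 CPM in SPOC on day 3. In DelPID it was at 93.4 CPM in the shallow replicate 1 and 169.0 CPM in replicate 2. With the mutation there it was at 197 and 169.2 CPM, so the second of these was nearly level with DelPID replicate 2. In PCGF35, Tdh was at 70.7 and 65.4 CPM without the mutation, 68.7 CPM in F10 and 187 CPM in F6.

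The 9 autosomal genes with the largest rises other than Spen summed to 237 and 189 CPM in WT and 432 and 495 CPM in SPOC on day 3, and to 173 and 204 CPM in DelPID against 407 and 341 CPM with the mutation. In PCGF35 they summed to 107 and 124 CPM against 123 CPM in clone F10 and 460 CPM in clone F6. The 10 autosomal genes with the largest falls summed to 304 and 484 CPM in WT and 41.7 and 14.7 CPM in SPOC on day 6, but to 30.7 and 21.4 CPM against 28.7 and 19.0 CPM on day 3. In the PCGF35 line they summed to 839 and 323 CPM against 859 CPM in clone F10 and 47.3 CPM in clone F6, so the mutant clones lay at opposite ends. In DelPID they summed to 203 and 88.4 CPM against 31.7 and 34.4 CPM. The 10 X genes with the largest rises summed to more with the mutation in each line, at 1514 and 1305 CPM against 2432 and 2709 CPM on day 3, 904 and 966 CPM against 1256 and 2544 CPM in PCGF35, and 1434 and 1857 CPM against 2813 and 2509 CPM in DelPID. Such sums follow their most abundant genes. On day 6 Usp9x made up 872 of 1140 CPM in WT replicate 1 and 2152 of 2777 CPM in clone H1. The autosomal sums were led by Kcnc2 and Hpse2 for the rises and by Thbs1 and Pcdh7 for the falls.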

How the data were processed

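The authors removed ribosomal reads with Bowtie2 2.3.2, aligned pairs with STAR 2.4.2a to mm10 with strain differences masked, assigned them to strains with SNPsplit, and used featureCounts in stranded mode over gene bodies. The deposited counts are raw, with a column each for all, Cast and Dom fragments. The authors also deposited, for 246 X genes, the allelic ratio as a fraction. It served only to choose these genes, and shares were computed from the counts.

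Dom and Cast counts were tested with edgeR 4.0.16 (quasi-likelihood, R 4.3.3), with terms for library and for allele by group, over genes with at least 10 allelic fragments in each library. Total counts were tested after filterByExpr and TMM, and each allele on the same scale. P-values were adjusted by Benjamini-Hochberg over all genes tested, and a gene was called at an adjusted p under 0.05. limma 3.58.1 and DESeq2 1.42.0 were alternatives. WT replicates differed by a chi-square per degree of freedom of 30.7 and SPOC clones by 17.2. With 2 libraries per group, p-values rest on the spread between cultures of the parental line in WT and between clones in SPOC. The edgeR fits also share information on spread across genes. Other differences of the clones from the parental line cannot be told apart from the mutation.

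Members and lists were chosen with earlier results of these data known. Genes named were Spen, Xist and Tsix, then, with at least 50 allelic fragments in each library, the 10 largest called rises in share with groups apart, the 10 smallest changes, the 5 lowest shares in SPOC and any called fall (0 found), and, with a mean of at least 5 CPM, the 10 largest called changes in total expression with groups apart in each direction on autosomes and on the X. Members of the lists are named as examples. The study describes WT and SPOC as differentiated in parallel in duplicate, but the labels do not say which WT library goes with which clone. Deviations from the group means correlated by 0.427 in log2 CPM and 0.0236 in Dom share for WT replicate 1 with D9. The crossed order gives the same values with the opposite sign. The tests reported above carry no term for pairing, and genes that did not pass them may pass with one. Counts with such a term are given below. Some genes are not reported here.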

Additional observations from a re-analysis of the deposited data

Results flagged for a closer look

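The 10 largest rises and 10 largest falls on the X were looked up on day 3 and in the PCGF35 and DelPID lines. So were the 9 autosomal rises other than Spen and the 10 autosomal falls. Of these, 5 genes moved one way on day 6 and every library the other way in another comparison, and none of these differences was tested. No such share was computed over all genes, so the count does not show more reversals than among genes at large. Mboat4 rose in SPOC on day 6, but in the DelPID line its log2 difference was -1.10, with 6.98 and 14.0 CPM without the mutation and 5.80 and 3.85 CPM with it. Pcdh11x fell on day 6, but on day 3 it had 2.53 and 3.11 CPM in WT and 4.99 and 3.40 CPM in SPOC, a log2 difference of 0.556. Tmsb4x fell on day 6 and had a log2 difference of 0.405 on day 3, at 5.13 and 4.11 CPM against 6.57 and 5.73 CPM. Col12a1 fell on day 6 and had 0.704 on day 3, at 0.868 and 0.646 CPM against 1.53 and 1.07 CPM. Wdr72 fell on day 6 and had 0.920 on day 3, at 1.08 and 1.23 CPM against 2.23 and 2.33 CPM. Apart from Mboat4, these genes were low in both groups on day 3.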

How the results depend on the processing

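The median share difference (0.245 to 0.267 over its alternatives), the X fragment difference (0.764 to 1.16 percentage points) and the count of X genes with more Dom expression (123 to 180, reported 160) kept their direction and stayed within 1.5 times under every alternative run for them. The 175 X genes before Xist with a higher share were 118 to 149 without 1 library, 140 to 190 in the other edgeR fits and 0 with limma on the share, where 188 passed an unadjusted p under 0.05. Limma on the share also gave 0 autosomal calls (495 higher and 611 lower unadjusted), and the fit of 58 libraries gave 23 higher and 74 lower. For total expression the fit of 58 libraries by edgeR gave 0 calls on the X (154 higher and 39 lower unadjusted) and 0 on autosomes (737 and 861). DESeq2 gave 88 higher and 18 lower on the X and 230 and 408 on autosomes, no filter gave 105 and 27, and 334 and 579, and the fit of 8 libraries gave 79 higher on the X and 203 on autosomes. Without 1 library the X counts were 35 to 103 and 9 to 26, autosomes 79 to 366 and 198 to 616, autosomal shares 29 to 84 and 85 to 143, and the Cast calls 1 to 8. Where 1 library was left out, the lone library was assumed to vary like the other group.

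The labels pair no WT library with a clone, so both orders were run as a replicate block. With WT replicate 1 beside D9, the block gave 177 higher and 40 lower X genes, 813 and 1087 autosomal genes and 37 Cast calls. With the crossed pairing it gave 67 and 18, 186 and 449, and 6. Share counts on the X were 182 in both. The cause of these differences was not tested.

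Of the single genes named, the direction of the share change reversed only for genes that were not called. Zc3h12b gave 6.05e-05 with limma (a difference in share) and, on the log2 scale, 0.021 with the block of WT replicate 1 and D9 and -1.81 to 0.83 without 1 library. Leaving out 1 library gave -0.38 to 1.38 for Atp6ap1, -0.079 to 0.68 for Slc25a5 and -0.043 to 0.076 for Spen. Over the 24 genes named for the share, 24 values under the alternatives lost a call and 8 gained it, and over the 42 named for total expression 47 lost it and 6 gained it. Of these losses, 41 came with 58 libraries and 14 with limma. With the block, Nhsl2 was called in both orders (adjusted p = 0.0107 and 0.0191) and Eda with the crossed pairing (0.0241) by edgeR. Depth limits the share of single genes: at the median of 92 to 142 allelic fragments, a share of 0 allows up to 0.0211 to 0.0326.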
